A study of Mus musculus with 8 samples.

Results

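The serpins are a superfamily of protease inhibitors, and their members on this array were taken as the 75 non-control probes whose gene name is Serpin followed by a clade letter from a to i and a number. They stand for 59 genes, out of 55681 probes and 36331 genes on the array. The study compared bone marrow-derived macrophages of mice that were Cullin 3 wildtype (WT) or Cullin 3 knockout (KO), either untreated or given LPS for 6 hours. Cullin 3 is the backbone subunit of many ubiquitin ligases, and LPS (lipopolysaccharide) is a component of bacterial outer membranes that activates macrophages through Toll-like receptor 4. Each of the 4 groups, WT untreated, WT with LPS, KO untreated and KO with LPS, had 2 arrays. All cells came from female mice of 6 to 8 weeks, and bone marrow was grown for 6 days in medium conditioned by L929 cells before use. The labels do not say how the knockout was driven, which part of the gene was removed, or whether the duplicates came from separate mice or cultures, so p-values measure only how far these samples spread, and that spread may be technical.

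A serpin inhibits by suicide. The protease cuts an exposed loop that mimics a substrate, the loop snaps into the body of the serpin, and the protease stays bound and distorted. Clade A holds secreted plasma inhibitors such as antitrypsin (Serpina1) and antichymotrypsin (Serpina3), clade B holds inhibitors that mostly stay inside the cell, and clade E holds the protease nexin Serpine2. The mouse has many more copies of Serpina1, Serpina3 and several Serpinb genes than man, as clusters of near-identical neighbours, and macrophages are a known source of the urokinase inhibitor Serpinb2 when they meet bacterial products.

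Levels below are log2 of the background-corrected spot signal minus the 75th percentile of the same array, so that 0 is the brightness of that percentile, and levels of different probes are not compared. The 75th percentile lay between 676 and 1553 signal units, and 60.9% to 73.7% of spots were well above background. The test took in genes with a probe that both arrays of some group showed well above background, and 37 of the 59 serpin genes were, by their brightest such probe. Genes were called at an adjusted p under 0.05 (limma over all 27968 tested genes, Benjamini-Hochberg). WT arrays lay in slide row 1 and KO arrays in row 2, and untreated and LPS arrays lay in different columns, so row and genotype cannot be told apart, nor column and LPS. The Cul3 probe was at 1.78 and 1.80 in untreated WT, 1.38 and 1.28 in untreated KO, 2.40 and 2.43 in WT with LPS, and 1.92 and 1.88 in KO with LPS. The KO arrays were thus the lower ones, by a log2 difference of -0.46 without LPS (adjusted p = 0.0903) and -0.52 with it (adjusted p = 0.0302).

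Markers of neutrophils differed between the genotypes. Of the 10 tested of 11 listed, 8 were higher in untreated KO cells and 9 in KO cells with LPS, and none was lower. Their summed level was 5.53 to 5.67 in untreated WT and 6.6 to 6.66 in untreated KO, and with LPS it was 7.84 to 7.97 in WT and 8.6 to 8.74 in KO. Of 8 tested macrophage markers, 0 were called between untreated genotypes and 1, the receptor Mertk, was lower in KO with LPS. That is 0% and 12.5%, and for neutrophil markers 80% and 90%, beside 3.29% and 16.4% of all genes. With LPS the summed macrophage level was 10.55 to 10.58 in WT and 10.35 to 10.42 in KO. Of the other lists, called higher and lower in untreated KO cells were 1 and 0 of 5 myeloid precursor markers, 2 and 0 of 9 stromal or endothelial markers, 1 and 0 of 3 megakaryocyte markers, and 0 of 2 mast cell, 4 T or NK cell and 2 B cell markers. With LPS these were 0 and 1, 1 and 1, 1 and 0, and then 1 and 0, 1 and 1, and 0 and 1. The summed precursor level, set almost wholly by Elane, was 4.95 to 5.14 in untreated WT and 4.43 to 4.52 in untreated KO. With LPS it was 4.54 to 4.83 in WT and 3.84 to 4.07 in KO. The other precursor markers, Ctsg, Mpo, Prtn3 and Ms4a3, were far dimmer and on average higher in KO in both states. The median KO minus WT difference of the list was 0.65 untreated and 0.3 with LPS. The summed megakaryocyte level, set almost wholly by Pf4, was higher in KO. It was 6.53 to 6.6 against 6.05 to 6.13 untreated and 7.4 to 7.41 against 6.55 to 6.83 with LPS. Ppbp and Itga2b were far dimmer, and Itga2b was well above background on only 1 of 2 arrays in every group but KO with LPS. None of the 4 hepatocyte markers was tested, since none passed the filter. In RNA from a mixed culture, more cells of a type and more RNA per cell cannot be told apart, and what part neutrophil RNA had in the serpin differences between genotypes was not tested.

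LPS moved most of the tested serpins, and the knockout moved fewer. In WT cells LPS raised 18 and lowered 5 of the 37 serpin genes, 62.2% against 57.7% of all tested genes (35.7% raised and 22% lowered). In KO cells it raised 15 and lowered 6, 56.8% against 48.5% (27.9% raised and 20.6% lowered). KO differed from WT in 3 serpins up and 2 down without LPS, 13.5% against 3.29% of all genes (2.17% up and 1.12% down). With LPS it differed in 3 up and 9 down, 32.4% against 16.4% (7.87% up and 8.49% down). The LPS response itself differed between genotypes in 3 serpins, Serpina3g, Serpinb9f and Serping1, each lower in KO, which is 8.11% against 4.37% of all genes (1.51% higher and 2.86% lower). The median change of all tested genes was 0.30 with LPS in WT, 0.19 with LPS in KO, 0.06 in KO without LPS, -0.07 in KO with LPS and -0.11 for the difference in response. For LPS in WT and KO it was -0.08 and -0.09 with arrays centred on their medians, -0.06 and -0.06 after quantile normalization, 0.52 and 0.36 with normexp, and -0.59 and -0.47 in the authors' unscaled log2 values. For the serpins, in the scaling used here, the 5 medians were 0.87, 0.53, 0.07, -0.29 and -0.25. In the authors' unscaled log2 values, which held 15 and 17 of these genes, LPS raised 5 and lowered 6 in each genotype. Of all genes in those values, 10958 of 16024 were called with LPS in WT and 10125 of 16676 in KO. KO with LPS had 3 up and 3 down of 18 serpins, beside 4364 of 16543 genes called. With normexp background correction LPS raised 25 and lowered 4 in KO cells, beside 18978 of 27949 genes called. With slide column as a block, 5 of the 20 genotype and difference calls held, those of Serpina3f, Serpina3g, Serpinb12, Serpinb1b and Serpine2 with LPS.

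**Figure D1:**
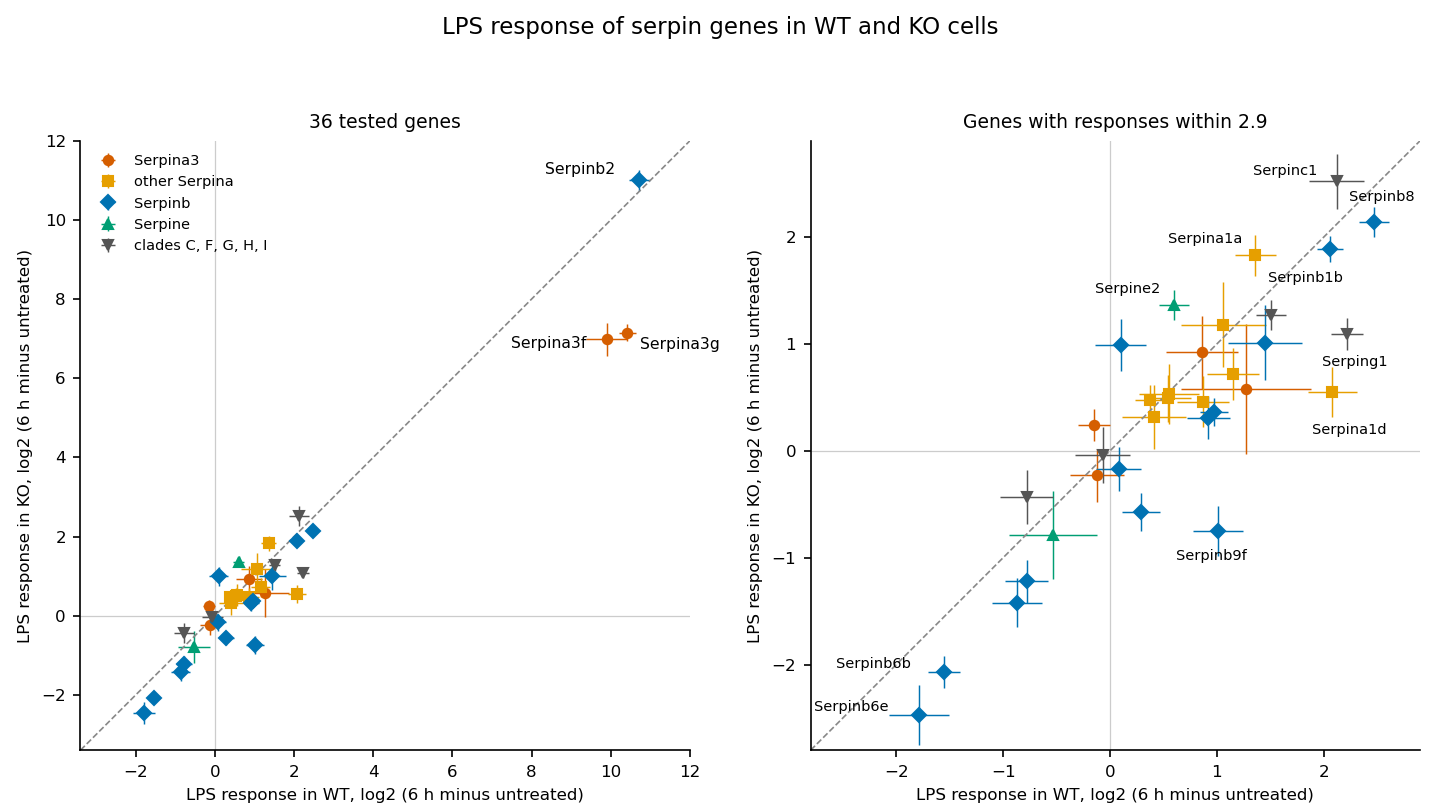
Log2 change with LPS in WT cells (x axis) and in KO cells (y axis) for 36 tested serpin genes, by clade, with standard errors as bars and the line of equal response dashed. The right panel enlarges the genes near the origin. Serpina3f and Serpina3g sit below the line at about the same height, Serpinb2 lies close to it, and the Serpinb6 genes fall in both genotypes.

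The Serpina3 clade was split between a pair of genes that rose by a large factor in both genotypes and a remainder that LPS left uncalled. Of its 9 genes 6 were tested, and LPS raised 2 and lowered 0 in either genotype. That is 33.3% in each, beside 57.7% of all genes in WT and 48.5% in KO. Serpina3g encodes an inhibitor also known as Spi2A, which is known to act on lysosomal cathepsins that leak into the cytosol. Its level was -3.82 and -3.65 in untreated WT, 6.73 and 6.65 in WT with LPS, -3.08 and -3.58 in untreated KO, and 4.0 and 3.64 in KO with LPS. The untreated genotypes lay close together, and both LPS groups lay far above them with KO below WT. LPS raised Serpina3g by 10.42 ± 0.21 (SE, n = 2 per group, adjusted p = 1.27e-06), or 1372-fold, in WT and by 7.15 ± 0.21 (adjusted p = 4.18e-06), or 142-fold, in KO. With LPS its level in KO was 7.31-fold lower than in WT, a log2 difference of -2.87 ± 0.21 (adjusted p = 0.00141), with -2.73 in slide column 3 and -3.01 in column 4. The difference between the responses was -3.27 ± 0.30 (adjusted p = 0.0122). That call was lost without KO LPS replicate 2, KO untreated replicate 2 or either WT untreated array (-3.52 to -3.09, adjusted p from 0.0527 to 0.0675), and with slide column as a block (adjusted p = 0.097).

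Serpina3f, its neighbour on chromosome 12, is a close paralogue. Its level was -6.23 on the single usable untreated WT array, since the spot on replicate 1 was flagged as an outlier and left out. It was 3.97 and 3.35 in WT with LPS, -5.88 and -6.98 in untreated KO, and 0.74 and 0.34 in KO with LPS. LPS arrays thus stood apart from untreated ones in both genotypes, and the WT and KO arrays with LPS did not overlap. LPS raised it by 9.90 ± 0.52 in WT (limma, adjusted p = 5.01e-05) and 6.98 ± 0.42 in KO (adjusted p = 0.000115). With LPS, KO was 8.68-fold lower than WT (-3.12 ± 0.42, adjusted p = 0.0109), with -3.23 and -3.01 in the separate slide columns. Without KO LPS replicate 2 this came to -2.92 at an adjusted p of 0.0613. The difference in response, -2.92 ± 0.67, did not pass the threshold (adjusted p = 0.08). The SE of the WT response and of this difference assumes that the lone untreated WT array varies like the other groups. Of the untreated KO arrays 1 of 2 was well above background, and the rise came to 4.51 in KO with normexp and 5.45 in WT in the authors' log2 values.

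The array places the Serpina3g probe at chr12:105480045-105480104 and the Serpina3f probe at chr12:105458989-105459048 (mm9, plus strand). Since these genes moved together, the 250 bases before their RefSeq starts are shown, with matches to the interferon gamma activation site (GAS, TTCNNNGAA) and to the NF-kB consensus in capitals. Serpina3f is read from chr12:104214294-104214543, before its most upstream start, and Serpina3g from chr12:104235897-104236146 (GRCm38.p6, plus strand).
Serpina3f: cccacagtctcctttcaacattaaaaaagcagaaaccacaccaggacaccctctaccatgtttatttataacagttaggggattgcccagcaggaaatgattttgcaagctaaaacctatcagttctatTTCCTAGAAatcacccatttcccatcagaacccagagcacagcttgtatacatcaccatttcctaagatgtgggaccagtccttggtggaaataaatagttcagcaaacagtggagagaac
Serpina3g: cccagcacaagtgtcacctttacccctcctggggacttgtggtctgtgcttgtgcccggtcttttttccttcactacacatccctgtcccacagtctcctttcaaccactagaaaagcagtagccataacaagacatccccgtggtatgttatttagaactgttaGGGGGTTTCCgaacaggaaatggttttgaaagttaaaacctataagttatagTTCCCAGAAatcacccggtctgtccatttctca

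Shifted by 88 bases, these stretches are identical at 105 of 162 bases without gaps. The GAS match lies at -121 to -113 from the start in Serpina3f and at -33 to -25 in Serpina3g, and the stretches around it line up. The NF-kB match of Serpina3g, at -85 to -76, lies opposite GGGGATTGCC in Serpina3f, which is no match. Over windows from 250 bases before to 50 after the start, searched on both strands, 29 of the 37 tested serpins had a RefSeq promoter. A GAS match was in 8.3% of all 32851 promoters and in 9 of the 35 promoters of these serpins. Those belong to 6 genes, Serpina3f, Serpina3g, Serpinb2, Serpinb6a, Serpina11 and Serpina1f, and starts of a gene can share a site, as in Serpina3f. The NF-kB consensus was in 4.51% of all promoters and in 2 of the 35, those of Serpina3g and Serpinh1. The interferon-stimulated response element (ISRE) was in 3.44% and in 2 of the 35, of Serpinb9 and of Serpinb6a, where it overlaps a GAS match. The antioxidant response element (ARE, TGACNNNGC) was in 12.4% and in 2 of the 35, of Serpinb12 and Serpinb6a.

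By their brighter probes, Serpina3b alone of the other tested Serpina3 genes was called between genotypes, and none was called with LPS. Serpina3b was at -0.97 and -1.0 in untreated WT, -0.97 and -1.30 in WT with LPS, -1.98 and -2.0 in untreated KO, and -1.82 and -1.68 in KO with LPS. KO arrays were below WT arrays in both states, by -1.0 ± 0.15 without LPS (limma, adjusted p = 0.0277) and -0.61 ± 0.15 with it (adjusted p = 0.0405). The first call was lost without any 1 array other than the WT LPS ones (-1.02 to -0.98, adjusted p up to 0.165). The second was lost without any 1 array other than WT LPS replicate 2 (-0.68 to -0.45, adjusted p up to 0.174). Serpina3c, Serpina3h and Serpina3m were called in no comparison, with log2 differences from -0.62 to 1.27 between groups. Serpina3a, Serpina3k and Serpina3n were not tested, and Serpina3n, which is the acute-phase member of the clade in many tissues, was not well above background on any array.

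Serpina3h had a second probe that behaved unlike the brighter one. The brighter probe lay between -0.79 and 0.07 on all 8 arrays, while the other rose by 10.76 ± 0.36 with LPS in WT (limma over all probes, adjusted p = 4.93e-06) and by 7.16 ± 0.36 in KO (adjusted p = 2.7e-05). Its difference in response was -3.60 ± 0.51 (adjusted p = 0.0334). The transcripts that the array file lists for that probe include one of Serpina3f, so it may not report Serpina3h alone.

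The Serpinb clade, inhibitors that mostly act inside cells, held both the largest serpin response to LPS in KO cells and most of the falls. Of its 26 genes 14 were tested. LPS raised 7 and lowered 4 in WT and raised 4 and lowered 6 in KO. KO had 2 up and 0 down without LPS and 2 up and 3 down with LPS. These are 78.6%, 71.4%, 14.3% and 35.7% of the tested genes, beside 57.7%, 48.5%, 3.29% and 16.4% of all genes. The tested genes lie in clusters, with Serpinb12, Serpinb3c, Serpinb2 and Serpinb8 on chromosome 1 and the other 10 on chromosome 13.

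Serpinb2, an inhibitor of urokinase that is mostly retained in the cytosol, was at -6.14 and -6.38 in untreated WT, 4.20 and 4.71 in WT with LPS, -5.74 and -6.38 in untreated KO, and 5.05 and 4.84 in KO with LPS. Genotypes overlapped without LPS, and KO lay slightly above WT with it. With LPS it rose by 10.72 ± 0.27 in WT (limma, adjusted p = 1.57e-06) and 11 ± 0.27 in KO (adjusted p = 3.08e-06). Across the alternative settings these rises were as small as 8.6 in WT and 9.06 in KO. The rise of Serpina3g in WT, 10.42, was no smaller than 9.4 in any setting, so the order of the 2 genes in WT depends on the setting. For Serpinb2, neither the genotype difference with LPS, 0.49 ± 0.27 (adjusted p = 0.269), nor the difference in response, 0.29 ± 0.38 (adjusted p = 0.708), passed the test. Serpinb8, an inhibitor of furin-like proteases, was at 7.12 and 7.07 in untreated WT and 9.50 and 9.63 with LPS, and at 6.76 and 7.0 in untreated KO and 8.97 and 9.07 with LPS. With LPS it went up by 2.47 ± 0.14 in WT cells (adjusted p = 2.06e-05) and 2.14 ± 0.14 in KO cells (adjusted p = 5.08e-05). With LPS it was lower in KO by a log2 difference of -0.55 ± 0.14 (adjusted p = 0.0433). That last call was lost without any 1 of the 8 arrays (-0.61 to -0.48, adjusted p up to 0.181) and came to -0.10 after quantile normalization, which also gave 1.52 for the rise in WT.

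The Serpinb6 genes, relatives of an inhibitor of cathepsin G, fell with LPS in both genotypes. Serpinb6e was at 1.14 and 0.42 in untreated WT, -1.21 and -0.81 in WT with LPS, 0.68 and 1.09 in untreated KO, and -1.57 and -1.60 in KO with LPS. It fell by 1.79 ± 0.28 in WT (limma, adjusted p = 0.00207) and 2.47 ± 0.28 in KO (adjusted p = 0.000611). Serpinb6b was at 1.91 and 1.76 in untreated WT, 0.33 and 0.25 in WT with LPS, 1.49 and 1.19 in untreated KO, and -0.67 and -0.79 in KO with LPS. It fell by 1.55 ± 0.15 in WT (adjusted p = 0.000245) and 2.07 ± 0.15 in KO (adjusted p = 9.03e-05). It was also the family member that differed between genotypes with LPS, by -1.02 ± 0.15 (adjusted p = 0.00947), or -0.96 without KO LPS replicate 2 (adjusted p = 0.0613). Those falls of Serpinb6e and Serpinb6b were larger in KO in their estimates, but the differences in response, -0.69 ± 0.40 (adjusted p = 0.376) and -0.53 ± 0.21 (adjusted p = 0.223), did not pass.

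Serpinb6a was at 8.31 and 8.03 in untreated WT, 7.14 and 7.63 in WT with LPS, 8.05 and 8.23 in untreated KO, and 6.99 and 6.86 in KO with LPS. It fell by 0.78 ± 0.20 in WT (limma, adjusted p = 0.0165) and 1.22 ± 0.20 in KO (adjusted p = 0.00321). Serpinb6c was at 7.82 and 7.54 in untreated WT, 6.50 and 7.11 in WT with LPS, 7.60 and 7.77 in untreated KO, and 6.30 and 6.22 in KO with LPS. It fell by 0.87 ± 0.23 in WT (adjusted p = 0.0166) and 1.42 ± 0.23 in KO (adjusted p = 0.00266). The WT calls were lost without WT untreated replicate 1 (-0.64 and -0.73, adjusted p = 0.0825 and 0.0831), and that of Serpinb6a also without WT LPS replicate 1 (-0.54, adjusted p = 0.0559). After quantile normalization the falls in WT came to -1.52 for Serpinb6a and -1.63 for Serpinb6c. The fall of Serpinb6c in WT came to -0.56 without WT LPS replicate 1. These probes share 55 of 59 overlapping bases and their genes cannot be told apart well. The 30 bases that hold every base at which they differ, in capitals, are shown for this reason, from probes at chr13:34009796-34009855 for Serpinb6a and chr13:33971686-33971745 for Serpinb6c (mm9, minus strand).
Serpinb6a: tgGcaATtatgaaataaagggcttTatggc
Serpinb6c: tgAcaGCtatgaaataaagggcttAatggc

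The Serpinb1 genes, copies of the leukocyte elastase inhibitor, went in different directions in the knockout. Serpinb1a was at -0.73 and -0.53 in untreated WT, 0.27 and 0.40 in WT with LPS, -1.01 and -1.08 in untreated KO, and -0.73 and -0.64 in KO with LPS. The rise with LPS was 0.97 ± 0.13 in WT (limma, adjusted p = 0.00106), while the change in KO was 0.36 ± 0.13 (adjusted p = 0.0648). The rise in WT came to 0.58 with arrays centred on their medians and was lost in the authors' unscaled log2 values (0.10, adjusted p = 0.681). With LPS, KO was below WT by -1.02 ± 0.13 (adjusted p = 0.00627), with -1.0 and -1.04 in the separate slide columns, and the difference in response was -0.61 ± 0.19 (adjusted p = 0.126). Serpinb1b was at -4.44 and -4.49 in untreated WT, -2.44 and -2.37 in WT with LPS, -2.79 and -2.93 in untreated KO, and -0.93 and -1.01 in KO with LPS. No array of any group overlapped another group. Serpinb1b was higher in KO by 1.61 ± 0.12 without LPS (adjusted p = 0.0032) and by 1.44 ± 0.12 with it (adjusted p = 0.00197), that is 3.04-fold and 2.71-fold, the first coming to 1.03 on the log2 scale with normexp. LPS raised it by 2.06 ± 0.12 in WT (adjusted p = 2.6e-05) and 1.89 ± 0.12 in KO (adjusted p = 5.06e-05). Serpinb1c was at -5.90 and -6.25 in untreated WT, -4.90 and -4.35 in WT with LPS, -7.11 and -6.67 in untreated KO, and -6.31 and -5.45 in KO with LPS. It rose by 1.45 ± 0.35 with LPS in WT (adjusted p = 0.0121), a call lost without WT LPS replicate 2 (1.17, adjusted p = 0.063) or WT untreated replicate 2 (1.28, adjusted p = 0.0697). Its genotype difference with LPS, -1.26 ± 0.35, missed the threshold (adjusted p = 0.0565).

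Serpinb12, a trypsin inhibitor of epithelia, was at -5.08 and -5.68 in untreated WT, -5.42 and -5.14 in WT with LPS, -4.15 and -4.51 in untreated KO, and -3.31 and -3.36 in KO with LPS. The 4 KO arrays lay above the 4 WT arrays. With LPS it was 3.85-fold higher in KO (1.94 ± 0.24, limma, adjusted p = 0.00541), with 2.11 and 1.78 in the separate slide columns. With normexp background correction it came to 0.64 (adjusted p = 0.00972). Without LPS the difference was 1.05 ± 0.24 (adjusted p = 0.0729). Its rise with LPS was 0.99 ± 0.24 in KO (adjusted p = 0.0144), a call lost without either KO LPS array or KO untreated replicate 2 (0.82 to 1.02, adjusted p up to 0.0833). In WT the change was 0.10 ± 0.24 (adjusted p = 0.742), and the difference in response, 0.89 ± 0.34, did not pass (adjusted p = 0.192). A second Serpinb12 probe was not well above background on any of the 4 WT arrays, so its fitted differences against WT are not used. On the KO arrays, where it was measured, it rose with LPS by 1.35 ± 0.27 (adjusted p = 0.00796 over all probes).

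Serpinb9, an inhibitor of the cytotoxic protease granzyme B, was at 0.00 and 0.06 in untreated WT, 0.71 and 1.18 in WT with LPS, 0.89 and 0.74 in untreated KO, and 1.30 and 0.95 in KO with LPS. It rose by 0.92 ± 0.20 in WT (limma, adjusted p = 0.00883), a call lost when arrays were centred on their medians (0.53, adjusted p = 0.104), and the change was 0.31 ± 0.20 in KO (adjusted p = 0.246). Serpinb9f was at -6.49 and -6.98 in untreated WT, where it was not well above background, -5.58 and -5.87 in WT with LPS, -5.02 and -5.46 in untreated KO, and -6.08 and -5.91 in KO with LPS. With the WT level taken as the higher of the measured signal and the lowest signal well above background, untreated KO was 2.74-fold higher. The fitted difference was 1.49 ± 0.23 (adjusted p = 0.0308). That fold holds in this scaling only and is no lower bound, since normexp gave a log2 difference of 0.31. In WT Serpinb9f was well above background on 0 of 2 untreated arrays and 1 of 2 LPS arrays. The size of the change there therefore cannot be bounded. The fit gave 1.01 ± 0.23 in WT (adjusted p = 0.0109) and -0.75 ± 0.23 in KO (adjusted p = 0.0382), and a difference in response of -1.76 ± 0.33 (adjusted p = 0.0438) that rests on the WT values near background. The difference in response was lost without any 1 of the 8 arrays (-2.0 to -1.51, adjusted p up to 0.138). The untreated call was lost without any 1 array other than the WT LPS ones (1.25 to 1.74, adjusted p up to 0.151) and with normexp (0.31, adjusted p = 0.193). The call in WT was lost without WT LPS replicate 1 or WT untreated replicate 2 (0.86 and 0.76) and after quantile normalization (0.53), and the fall in KO without either KO LPS array or KO untreated replicate 1 (-0.83 to -0.53, adjusted p up to 0.192), and it turned to 0.21 with normexp background correction. The file lists a transcript of Serpinb9e for this probe too. Serpinb9e itself was at -4.39 and -4.77 in untreated WT, -4.29 and -4.28 in WT with LPS, -4.45 and -4.16 in untreated KO, and -4.96 and -4.78 in KO with LPS. It was lower with LPS in KO by -0.57 ± 0.18 (adjusted p = 0.0414), which was lost without any 1 array other than the WT untreated ones (-0.71 to -0.42, adjusted p up to 0.209) and was 0.61 ± 0.36 (adjusted p = 0.209) by its second probe. Serpinb3c, the 14th tested gene, was called in no comparison and its differences ran from -0.25 to 0.59.

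**Figure D2:**
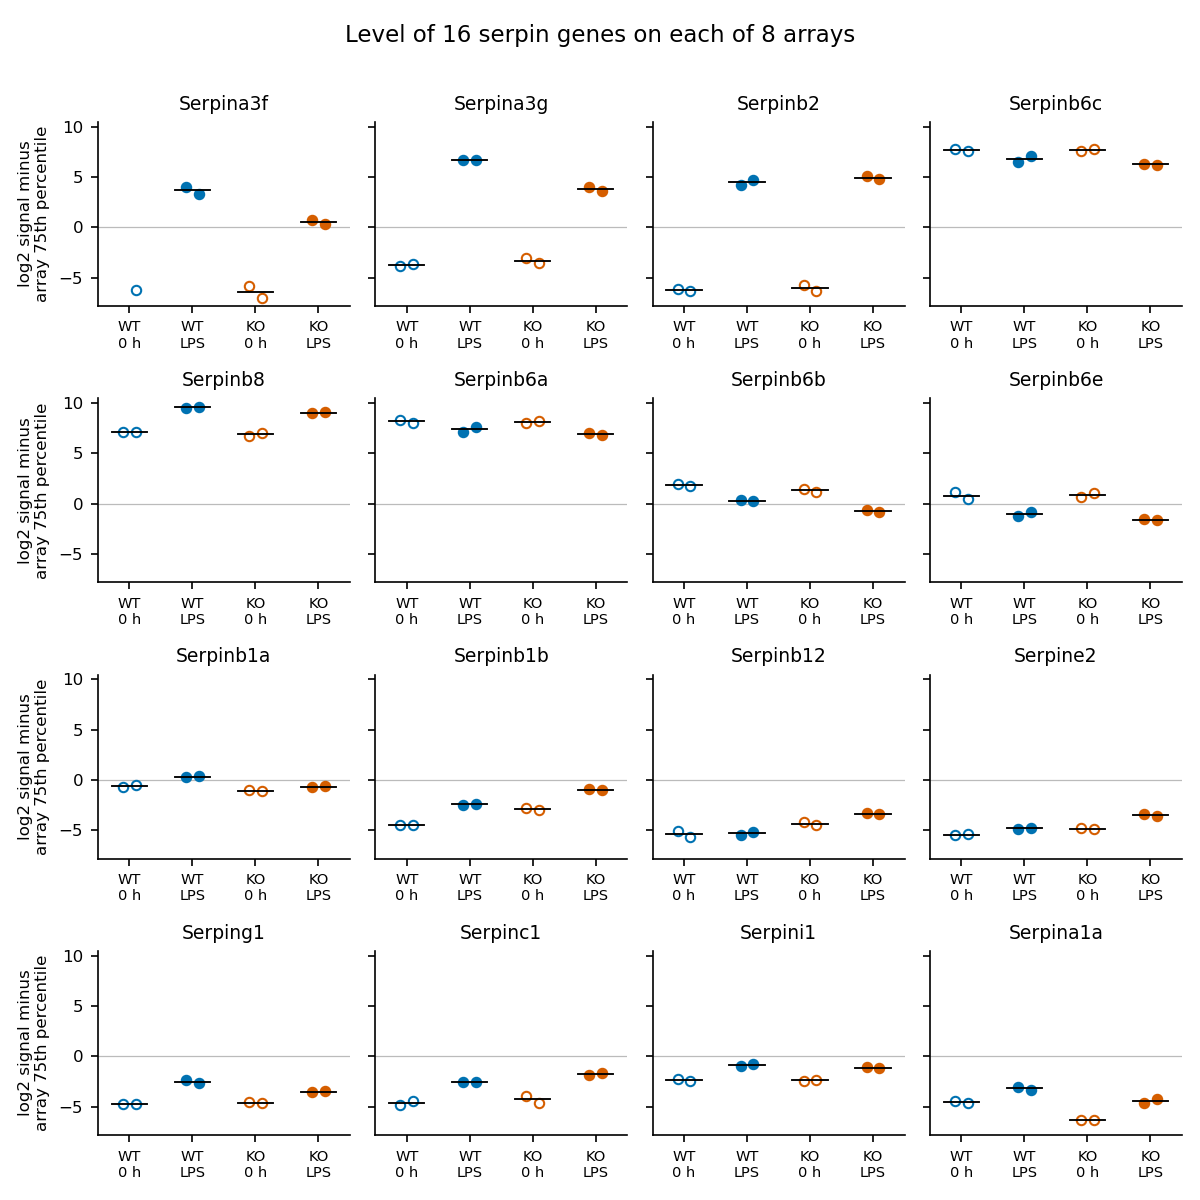
Level of 16 serpin genes on each of the 8 arrays, as log2 signal minus the array's 75th percentile (y axis), by group (x axis), with WT in blue, KO in orange, untreated arrays as open circles, LPS arrays as filled circles and the mean of 2 arrays as a bar. Serpina3f and Serpina3g are lower in KO than in WT with LPS, Serpinb2 reaches similar levels in both genotypes, and Serpinb1b and Serpinb12 are higher in KO.

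In the Serpine clade, Serpine2, a cell-surface inhibitor of thrombin and urokinase, was at -5.45 and -5.38 in untreated WT, -4.91 and -4.72 in WT with LPS, -4.78 and -4.89 in untreated KO, and -3.36 and -3.59 in KO with LPS. KO arrays with LPS were above all others. The rise with LPS was 0.60 ± 0.14 in WT (limma, adjusted p = 0.0122) and 1.36 ± 0.14 in KO (adjusted p = 0.000438). With LPS it was 2.53-fold higher in KO (1.34 ± 0.14, adjusted p = 0.00377), with 1.55 and 1.13 in the separate slide columns, and 0.41 (adjusted p = 0.0455) with normexp. The difference in response, 0.76 ± 0.20, did not pass (adjusted p = 0.0923). The rise in WT was lost with arrays centred on their medians (0.21, adjusted p = 0.357), after quantile normalization (0.17, adjusted p = 0.422) and without WT untreated replicate 1 (0.56, adjusted p = 0.0544). Serpine3 was called in no comparison, with differences from -0.79 to 0.35. With LPS, 3 of 6 tested Serpina3 genes were lower in KO and none was higher, while in the Serpinb clade 3 of 14 were lower and 2 higher, and Serpine2 was higher. That is 50% of the tested Serpina3 genes and 35.7% of the tested Serpinb genes, beside 16.4% of all genes (7.87% up and 8.49% down).

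**Figure D3:**
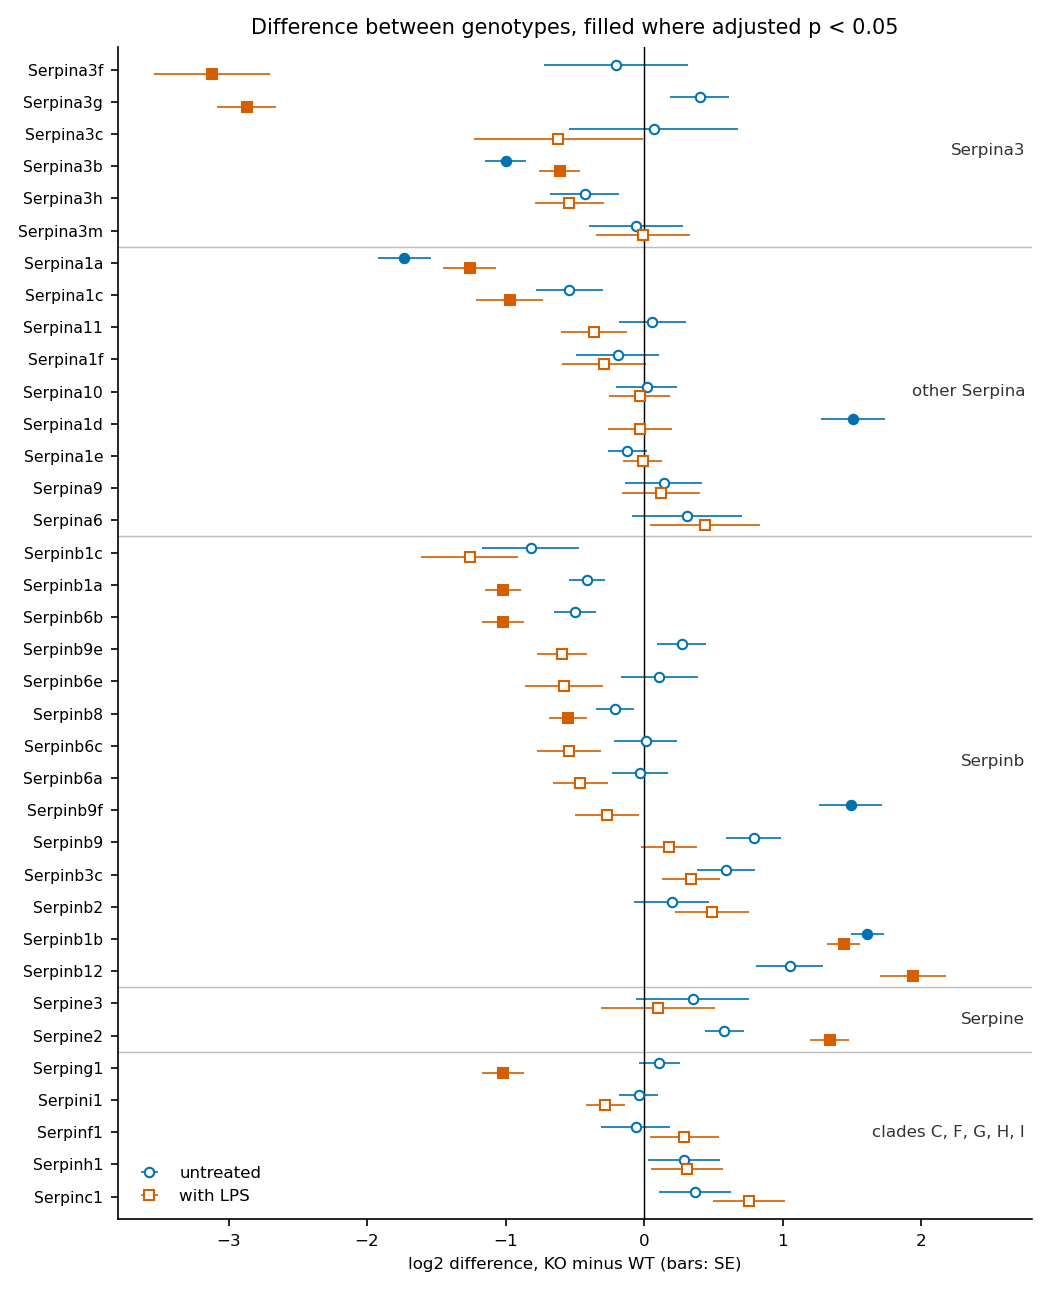
Log2 difference between KO and WT (x axis) for 36 tested serpin genes (y axis), untreated (blue circles) and with LPS (orange squares), with standard errors as bars and filled symbols for an adjusted p under 0.05. With LPS the calls are 9 below 0, led by Serpina3f and Serpina3g, and 3 above it, Serpinb12, Serpinb1b and Serpine2.

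The remaining Serpina genes, made mainly by the liver as plasma inhibitors or hormone carriers, were dim in these cells. Of 13 genes 9 were tested, and the LPS median was 0.87 in WT and 0.53 in KO, beside 0.30 and 0.19 for all genes. Serpina1a, a copy of antitrypsin, was at -4.44 and -4.65 in untreated WT, -3.02 and -3.34 in WT with LPS, -6.28 and -6.28 in untreated KO, and -4.64 and -4.25 in KO with LPS. After LPS it was up by 1.36 ± 0.19 in WT (limma, adjusted p = 0.0011) and 1.83 ± 0.19 in KO (adjusted p = 0.000375). KO was below WT by -1.73 ± 0.19 without LPS (adjusted p = 0.00949) and by -1.26 ± 0.19 with it (adjusted p = 0.00932). The first of these was lost without any 1 untreated array (-1.84 to -1.63, adjusted p up to 0.0801), and the second when probes were averaged (-0.49, adjusted p = 0.0989). With normexp they came to -0.65 and -0.77, and the rise in KO to 0.95. The other Serpina1a probe did not bear the genotype difference out, at -0.10 ± 0.23 without LPS (adjusted p = 0.853) and 0.29 ± 0.23 with it (adjusted p = 0.461), though it too rose with LPS, by 0.81 ± 0.23 in WT and 1.20 ± 0.23 in KO (adjusted p = 0.0257 and 0.00691). The Serpina1c probe is nearly the same as the first Serpina1a probe, with 50 of 51 overlapping bases identical, as the 30 bases around the base that differs show. The probes lie at chr12:105091819-105091878 for Serpina1a and chr12:105133165-105133224 for Serpina1c (mm9, minus strand).
Serpina1a: taaAatgtcatccttccttctgaattgggt
Serpina1c: taaGatgtcatccttccttctgaattgggt

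Serpina1c was at -4.65 and -4.70 in untreated WT, -3.27 and -3.78 in WT with LPS, -5.49 and -4.95 in untreated KO, and -4.59 and -4.41 in KO with LPS. LPS raised it by 1.15 ± 0.24 in WT (limma, adjusted p = 0.0071) and 0.72 ± 0.24 in KO (adjusted p = 0.0483), and with LPS it was lower in KO by -0.97 ± 0.24 (adjusted p = 0.0423). The last was lost without any 1 array other than WT LPS replicate 2 and the untreated KO ones (-1.06 to -0.72, adjusted p up to 0.165). The rise in KO was lost without either KO LPS array, KO untreated replicate 1 or either untreated WT array (0.45 to 0.81, adjusted p up to 0.238). Serpina1d was at -7.30 and -7.73 in untreated WT, where it was not well above background, -5.24 and -5.62 in WT with LPS, -5.89 and -6.12 in untreated KO, and -5.28 and -5.64 in KO with LPS. With the untreated WT level set as for Serpinb9f, untreated KO was 1.61-fold higher in this scaling. The fitted difference was 1.51 ± 0.23 (adjusted p = 0.0283). That call was lost without any 1 untreated array (1.29 to 1.72) and with normexp. Normexp gave a smaller log2 difference of 0.21 (adjusted p = 0.437), so 1.61-fold is no lower bound. With LPS 1 of 2 WT arrays was well above background, so the change in WT cannot be bounded. It was fitted as 2.08 ± 0.23 (adjusted p = 0.000408), and the change in KO as 0.55 ± 0.23 (adjusted p = 0.0928). The difference in response, which rests on those WT values, was -1.54 ± 0.32 (adjusted p = 0.0554). The file lists other Serpina1 transcripts for the Serpina1c and Serpina1d probes.

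Serpina1e was at -3.59 and -3.87 in untreated WT, -3.29 and -3.41 in WT with LPS, -3.82 and -3.86 in untreated KO, and -3.34 and -3.38 in KO with LPS. It rose by 0.48 ± 0.14 in KO (limma, adjusted p = 0.029), which was lost without any 1 KO array (0.46 to 0.50, adjusted p up to 0.131). Serpina6, the corticosteroid-binding globulin, was at -5.53 and -6.50 in untreated WT, -5.40 and -4.52 in WT with LPS, -5.74 and -5.67 in untreated KO, and -4.32 and -4.72 in KO with LPS. It rose by 1.18 ± 0.40 in KO (adjusted p = 0.0494), which was also lost without any 1 KO array (0.98 to 1.39, adjusted p up to 0.179). Serpina11 was at -2.16 and -2.69 in untreated WT, -1.61 and -1.49 in WT with LPS, -2.57 and -2.17 in untreated KO, and -2.07 and -1.76 in KO with LPS. It rose by 0.87 ± 0.24 in WT (adjusted p = 0.0192), lost without either WT LPS array or WT untreated replicate 2 (0.61 to 0.94, adjusted p up to 0.0965). With arrays centred on their medians these 3 rises came to 0.20, 0.90 and 0.49 and none passed (adjusted p = 0.267, 0.108 and 0.0835). Second probes of Serpina1e and Serpina11 were also called. That of Serpina1e rose by 1.18 ± 0.16 in WT (limma over all probes, adjusted p = 0.00135) and 0.69 ± 0.16 in KO (adjusted p = 0.0156). It shares 49 of 59 overlapping bases with the Serpina1c probe, and whether it reports Serpina1e alone was not tested. The second Serpina11 probe rose by 1.06 ± 0.23 in WT (adjusted p = 0.00882), but it shares 53 of 57 overlapping bases with the brighter one and is no independent check. Serpina10, Serpina1f and Serpina9 were called in no comparison by their brighter probes, with differences from -0.29 to 0.55, but the other Serpina10 probe rose by 1.01 ± 0.26 with LPS in WT (adjusted p = 0.0186 over all probes).

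Among clades C, D, F, G, H and I, 5 of 8 genes were tested. Serping1, the C1 inhibitor that restrains complement and the kallikrein system, was at -4.71 and -4.76 in untreated WT, -2.35 and -2.66 in WT with LPS, -4.56 and -4.67 in untreated KO, and -3.58 and -3.47 in KO with LPS. By this probe, the brighter of 2, the genotypes were alike in level without LPS and apart with it. With LPS it rose by 2.22 ± 0.15 in WT (limma, adjusted p = 4.29e-05) and 1.09 ± 0.15 in KO (adjusted p = 0.00131), a difference in response of -1.13 ± 0.21 (adjusted p = 0.0417). With LPS, KO was lower by -1.02 ± 0.15 (adjusted p = 0.00877), or -0.96 without KO LPS replicate 1 (adjusted p = 0.0539). The difference in response was lost without any 1 array other than the WT LPS ones (-1.19 to -1.08, adjusted p up to 0.151). Its second probe gave -2.14 ± 0.45 for that difference (adjusted p = 0.0671 over all probes). By that probe KO minus WT was 0.96 ± 0.32 without LPS (adjusted p = 0.182) and -1.17 ± 0.32 with it (adjusted p = 0.0613).

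Serpinc1, antithrombin, was at -4.84 and -4.42 in untreated WT, -2.52 and -2.5 in WT with LPS, -3.90 and -4.63 in untreated KO, and -1.82 and -1.68 in KO with LPS. It rose by 2.12 ± 0.26 in WT (limma, adjusted p = 0.000713) and 2.52 ± 0.26 in KO (adjusted p = 0.000424), and the genotype difference with LPS of 0.76 ± 0.26 did not pass (adjusted p = 0.104). Serpini1, neuroserpin, an inhibitor of tissue plasminogen activator, was at -2.24 and -2.43 in untreated WT, -0.92 and -0.72 in WT with LPS, -2.44 and -2.31 in untreated KO, and -1.07 and -1.14 in KO with LPS. It rose by 1.51 ± 0.14 in WT (adjusted p = 0.000194) and 1.27 ± 0.14 in KO (adjusted p = 0.000551). Its second probe gave 0.58 ± 0.19 in WT (adjusted p = 0.0405 over all probes) and 0.56 ± 0.19 in KO (adjusted p = 0.0552), and the authors' log2 values 0.77 and 0.69. Serpinf1, the pigment epithelium-derived factor, was at -2.75 and -2.41 in untreated WT, -3.71 and -3.0 in WT with LPS, -2.59 and -2.68 in untreated KO, and -3.15 and -2.98 in KO with LPS. It fell by 0.78 ± 0.25 in WT (adjusted p = 0.0382), lost without any 1 array other than WT LPS replicate 2 (-0.95 to -0.42, adjusted p up to 0.175), and its second probe gave 0.04 ± 0.16. Serpinh1, the collagen chaperone, was called in no comparison, with differences from -0.07 to 0.31.

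**Figure D4:**
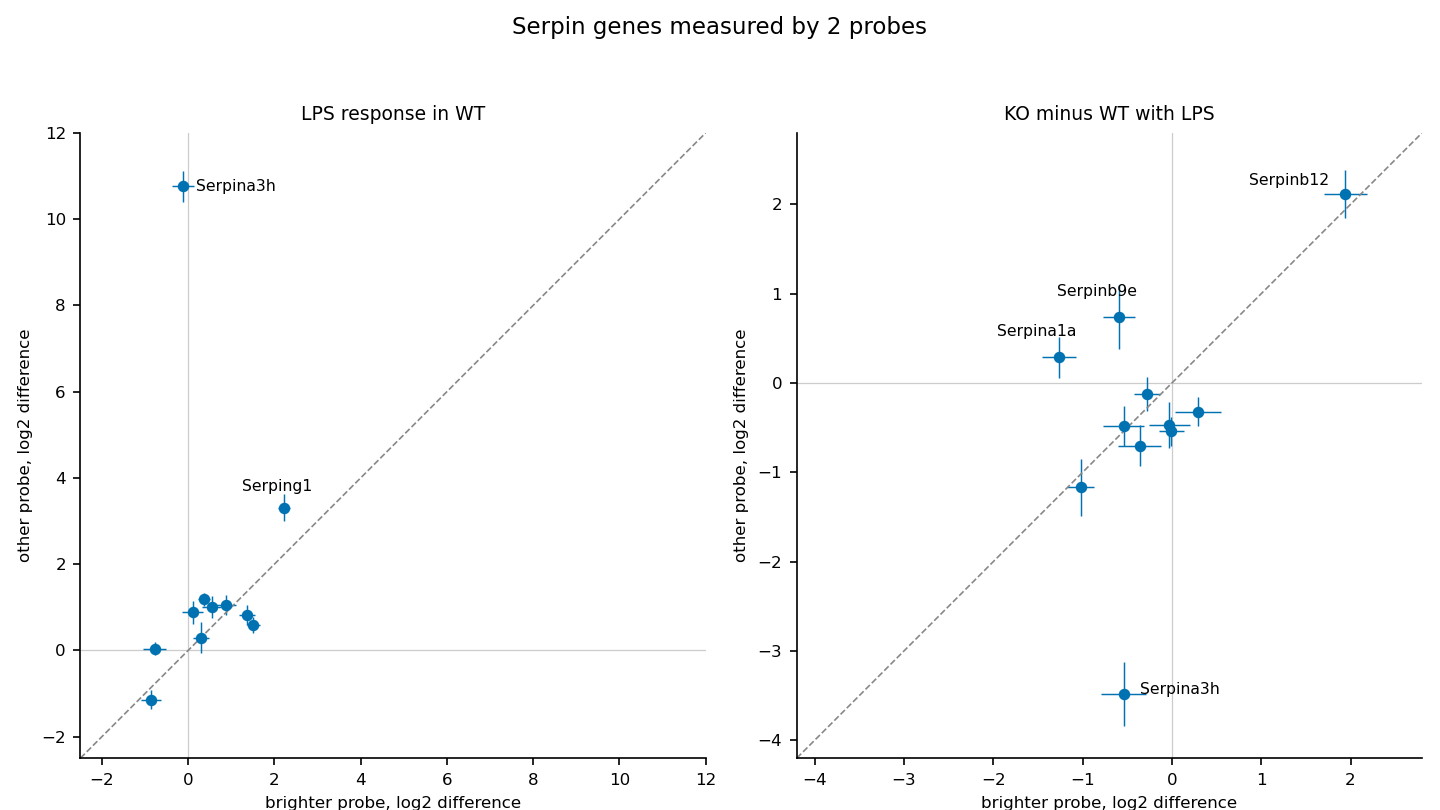
Log2 difference by the brighter probe (x axis) and by the other probe (y axis) for the 11 serpin genes with 2 tested probes, for the LPS response in WT (left) and for KO minus WT with LPS (right), with standard errors as bars and the line of equality dashed. The Serpina3h probes lie far from the line in both panels, and Serpina1a, Serpinb9e and Serpinf1 have opposite signs in the right panel. The other Serpinb12 probe was not well above background on any WT array, so its position is not a measured size.

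The 22 serpin genes that were not tested were Serpina3a, Serpina3k, Serpina3n, Serpina12, Serpina4-ps1, Serpina5, Serpina7, Serpinb10, Serpinb11, Serpinb13, Serpinb3a, Serpinb3b, Serpinb3d, Serpinb5, Serpinb7, Serpinb9b, Serpinb9c, Serpinb9d, Serpinb9g, Serpind1, Serpinf2 and Serpini2. Their probes were well above background on at most 3 of the 8 arrays. The array names a further 4 serpin genes by provisional symbols (Gm6930, Gm4931, Gm11390 and Gm46, for Serpina3i, Serpina3j, Serpinb6d and Serpina16), which the rule does not take in.

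Proteases that serpins inhibit were called with LPS about as often as all genes. Of 32 listed 26 were tested, with 13 up and 3 down with LPS in WT and 9 up and 6 down in KO. That is 61.5% in WT against 57.7% of all genes, and 57.7% in KO against 48.5%. KO had 0 up and 2 down without LPS, 7.69% against 3.29%, and 2 up and 7 down with it, 34.6% against 16.4%. Plat, tissue plasminogen activator, which Serpini1 inhibits, was not well above background in untreated WT. With that level set as for Serpinb9f, LPS left it 280-fold higher there in this scaling (fitted change 9.16 ± 0.59, limma, adjusted p = 3.8e-05). Its fitted rise in KO was 8.73 ± 0.59 (adjusted p = 6.44e-05). Plau, urokinase, was at 1.17 and 0.99 in untreated WT, -1.10 and -1.28 in WT with LPS, 0.29 and 0.15 in untreated KO, and -2.34 and -2.52 in KO with LPS. It fell with LPS by 2.27 ± 0.15 in WT (adjusted p = 3.81e-05) and 2.65 ± 0.15 in KO (adjusted p = 2.88e-05), and it was lower in KO by -0.86 ± 0.15 without LPS (adjusted p = 0.0383) and -1.24 ± 0.15 with it (adjusted p = 0.00479). Gzmb, granzyme B and the target of Serpinb9, rose by 1.89 ± 0.17 in WT (adjusted p = 0.00018) and 2.71 ± 0.17 in KO (adjusted p = 5.09e-05). Ctsk, the cysteine protease cathepsin K, was lower in KO by -1.37 ± 0.22 without LPS (adjusted p = 0.0313) and -1.84 ± 0.22 with it (adjusted p = 0.00479).

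Of 16 listed cofactors and uptake receptors 13 were tested, with 6 up and 5 down with LPS in either genotype, 1 up and 2 down in untreated KO, and 2 up and 3 down in KO with LPS. These are 84.6%, 23.1% and 38.5% of the list, beside 57.7% of all genes for LPS in WT, 48.5% for LPS in KO, 3.29% and 16.4%. In the difference in response 1 was up and 2 were down, 23.1% against 4.37% of all genes. The heparan sulfate carrier Sdc4 was at 4.5 and 4.46 in untreated WT, 8.62 and 8.76 in WT with LPS, 2.28 and 2.41 in untreated KO, and 6.96 and 6.99 in KO with LPS. It was lower in KO by -2.14 ± 0.12 without LPS (limma, adjusted p = 0.0013) and -1.71 ± 0.12 with it (adjusted p = 0.00137). Procr, the endothelial protein C receptor, was higher in untreated KO by 1.46 ± 0.16 (adjusted p = 0.00963). It rose by 6.30 ± 0.16 with LPS in WT (adjusted p = 1.57e-06) and 4.71 ± 0.16 in KO (adjusted p = 5.69e-06), a difference of -1.59 ± 0.22 (adjusted p = 0.0256). F3, of the same list, was at -5.96 and -5.06 in untreated WT and 3.84 and 3.47 in WT with LPS. In KO it was at -3.68 and -4.41 untreated and 3.1 and 2.68 with LPS, a fitted difference in response of -2.23. Plaur, the urokinase receptor, rose by 3.60 ± 0.16 in WT (adjusted p = 9.54e-06) and 3.71 ± 0.16 in KO (adjusted p = 1.3e-05).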

How the data were processed

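Expression was measured on 8 one-colour Agilent arrays. The deposited intensity of each spot had been background-subtracted and detrended by the authors, per the file headers. The software was Agilent Feature Extraction, version 10.7.3.1 in the submitters' processing notes, with no scaling between arrays. The authors also deposited log2 values, which followed the background-subtracted signals and were used as an alternative. Control and outlier-flagged spots were left out, spots of a probe were averaged, and log2 intensity was taken minus each array's 75th percentile. Groups were fitted together in limma (3.58.1, R 4.3.3) with 5 contrasts, 4 residual and 2.3 prior degrees of freedom. The fit was tested on simulated data, with 100 genes changed by each of 2 sizes in KO with LPS. It called 86% of genes changed by a log2 of 3 and 26% of those changed by 1. These shares do not give the sensitivity in the data. There 4572 of 27951 genes were called in that comparison, and the cutoff of the adjusted p depends on how many genes change. A gene that was not called may still have changed. With 2 arrays a group, precision is limited by their number. No pairing by replicate number was seen (correlations of deviations from -0.184 to 0.0243), which cannot exclude that samples were paired. Probe coordinates are those of the files (mm9), and promoters are from RefSeq (GRCm38.p6).

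The members and all gene lists were chosen with earlier results of these data known. Every serpin called in any comparison was named, other than 1 that is not reported here, with its level on each array, uncalled ones by their range, and of other lists at most 4 called members per comparison.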

Additional observations from a re-analysis of the deposited data

Results flagged for a closer look

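The LPS response differed between genotypes, by the interaction term of the limma fit, in 3 of the 37 tested serpins, with 4.37% of all genes called. Serpina3g responded less in KO cells by -3.27 ± 0.30 on the log2 scale (adjusted p = 0.0122, n = 2 arrays per group). Serpinb9f did so by -1.76 ± 0.33 (adjusted p = 0.0438), a value that rests on WT arrays of which only 1 of 4 was well above background, and Serping1 by -1.13 ± 0.21 (adjusted p = 0.0417). Groups of 2 arrays are too small to look for an array that stands apart.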

How the results depend on the processing

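Of 64 calls (a serpin in a comparison), 58 held after quantile normalization, 56 with arrays centred on medians, 58 with normexp, 50 without a filter, and all 54 that could be fitted with a filter on all 8 arrays. With single arrays left out, 47 to 59 held. The main counts were 5, 12, 23, 21 and 3 serpins for KO without LPS, KO with LPS, LPS in WT, LPS in KO and the difference in response. Leaving out 1 array gave 1 to 5, 7 to 11, 18 to 24, 15 to 21 and 0 to 3. In the authors' unscaled log2 values, with 14 to 18 serpins, they were 2, 6, 11, 11 and 1. Called over all genes there were 1415 of 17686, 4364 of 16543, 10958 of 16024, 10125 of 16676 and 613 of 15795. When only the 4 arrays compared were fitted, the counts were 3 (KO without LPS) and 5 (KO with LPS). Slide column as a block gave 0, 5 and 0 in limma for KO without LPS, KO with LPS and the difference in response, with 10 and 9 serpins at an unadjusted p under 0.05 where the count was 0. Without a filter on dim probes KO without LPS had 2 and the difference 1. The numbers did not pair the arrays, and the replicate block gave 1 for the difference in response and 4, 9, 23 and 20 for the others.

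Over all genes, the calls behind the background shares moved too. The 919 of KO without LPS were 111 to 1441 with 1 array left out, 139 with slide column as a block, 355 with the replicate block, 366 without a filter and 2250 with normexp. The 4572 of KO with LPS were 1432 to 4139, 1134, 2765, 2822 and 5795, and 793 with only the 4 arrays compared. The 1221 of the difference were 0 to 2208, 0, 115, 190 and 2346.

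Signs turned for Serpina11 (0.00) and Serpinb9 (-0.01) with LPS in WT and Serpina1e (-0.23) in KO in the authors' values, for Serpinb9e in KO with a mean of probes (0.02) or normexp (0.10), and for Serpinb9f in KO with normexp (0.21). The causes were not tested. Serpina1d and Serpinb9f were not well above background in untreated WT.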

Other observations

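Of 29 listed protease inhibitors of other families 21 were tested, and LPS had 14 up and 2 down in WT and 14 up and 3 down in KO. These are 76.2% and 81% of the list, beside 57.7% and 48.5% of all genes. KO had 4 up and 2 down without LPS, 28.6% against 3.29%, and 3 up and 4 down with it, 33.3% against 16.4%. Slpi, the secreted inhibitor of leukocyte elastase, was at 0.81 and 0.48 in untreated WT, 3.74 and 4.0 in WT with LPS, 3.32 and 3.28 in untreated KO, and 7.14 and 7.10 in KO with LPS. It was higher in KO by 2.66 ± 0.16 without LPS (limma, adjusted p = 0.00153) and by 3.25 ± 0.16 with it (adjusted p = 0.000952). Wfdc21, of the same whey acidic protein family, was higher in KO by 1.51 ± 0.19 (adjusted p = 0.0162) and 2.21 ± 0.19 (adjusted p = 0.00212). Cst7, cystatin F, was lower in KO by -0.93 ± 0.12 (adjusted p = 0.0163) and -0.88 ± 0.12 (adjusted p = 0.00706) and rose by 5.75 ± 0.12 with LPS in WT (adjusted p = 1.27e-06) and 5.80 ± 0.12 in KO (adjusted p = 2.54e-06). Timp1, an inhibitor of metalloproteinases, rose by 8.09 ± 0.25 in WT (adjusted p = 2.71e-06) and 7.46 ± 0.25 in KO (adjusted p = 5.57e-06). Stfa3, a stefin, rose by 4.58 ± 0.16 in WT (adjusted p = 4.13e-06) and 3.27 ± 0.16 in KO (adjusted p = 1.82e-05), a difference of -1.30 ± 0.23 (adjusted p = 0.0362). The neutrophil markers given with the serpin results were higher in KO in both states too, and their part in the Slpi and Wfdc21 differences was not tested.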
